A study of Mus musculus with 2 samples.

Results

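Transcripts of 38 genes of fibroblasts, blood vessel walls and the extracellular matrix were followed in a sorted myeloid population. The genes were taken by symbol from a fixed list of proteoglycans, collagens, matrix glycoproteins and secreted proteins, growth factor receptors, smooth muscle genes and endothelial genes. Of the 38, 37 are among the 24346 genes of the deposited tables. The other one, Gsn-ps, a gelsolin pseudogene, was not analysed here, and the gelsolin gene Gsn itself (784 FPKM in the control and 928 FPKM with ATPγS) does not stand in for it. RNA was sequenced from Gr-1+ CD11b+ cells, a surface phenotype carried by neutrophils and monocytes, from BALB/c mice after 6 days of 3% dextran sulfate sodium, which damages the gut lining and causes colitis. Cells of the control library (n = 1) were held for 2.5 hours with no ATPγS. Cells of the other library (n = 1) were held as long with ATPγS, an ATP analogue that enzymes cleave slowly and that acts on nucleotide receptors. Its concentration is labelled as 100, in a molar unit whose prefix is not legible. Both groups therefore share the strain, the colitis and the sort. The organ the cells were sorted from, and whether animals were pooled, is not stated in the labels.

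Fibroblasts make most of the interstitial matrix. Fibrillar collagens give it tensile strength, small leucine-rich proteoglycans such as decorin bind and space the fibrils, and microfibril and matricellular proteins link the fibres to cells. Smooth muscle cells and pericytes wrap vessels and use a contractile actin and myosin, whereas endothelial cells line the lumen and sit on a sheet of type IV collagen and laminin. Neutrophils and monocytes are not major makers of interstitial collagen, although leukocytes and platelets use several of the other genes, among them Pecam1, Fn1, Sparc and Vwf. Which cells the transcripts below came from was not measured. In bulk RNA of this kind, fewer cells of a type and less RNA per cell cannot be told apart.

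Values are FPKM, which scale fragments to transcript length and library size. Levels of different genes are set side by side on that scale. The gene models behind it are not known, and other differences between transcripts were not corrected, so ratios between genes are approximate. Each group is 1 library, so spread between replicates is unknown, no test was run, and no difference below has a replicate check. The recovered depth was 2140000 fragments in the control and 2857000 fragments in the ATPγS library. Intervals of a ratio are 95% exact binomial intervals on estimated fragments and cover counting error only. Olfactory and vomeronasal receptor genes, pseudogenes among them, gave a yardstick for low levels. Whether each is silent in blood or stroma was not tested, and not all were low. Their sum was 9784 FPKM in the control and 9570 FPKM with ATPγS, and 6660 and 6618 FPKM without the pseudogene Olfr856-ps1. The 1452 receptor genes had a median of 1.96 FPKM in the control and 2.21 FPKM with ATPγS, and a 99th percentile of 29.6 and 25.6 FPKM. These receptor genes are short (median coding length 939 bases, against a median transcript length of 3995 bases for the members), so 1 fragment adds more FPKM to them. Neutrophil transcripts were at high levels in both libraries, with S100a8 at 20604 and 22409.6 FPKM, and the gate gene Itgam, of CD11b, stood at 112 and 144 FPKM.

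The main fibroblast and matrix transcripts were abundant in both libraries. Dcn, of the proteoglycan decorin, was the 121st most abundant of all genes in the control (605 FPKM) and the 127th with ATPγS (587 FPKM). Col3a1, Igfbp7, Sparc and Lum were also above 100 FPKM in both. Of the 37 genes, 13 exceeded the 99th percentile of the receptor genes of the same library in both, against 9.23% of all genes, and 22 exceeded it in neither. The 13 were Dcn, Lum, Bgn, Col1a1, Col1a2, Col3a1, Col4a1, Fbln1, Mfap5, Sparc, Mgp, Igfbp7 and Acta2. They hold 3 proteoglycans, 4 collagens, 5 matrix glycoproteins or secreted proteins, 1 smooth muscle gene and 0 endothelial genes. None of the 37 was listed at 0 in either library.

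**Figure D1:**
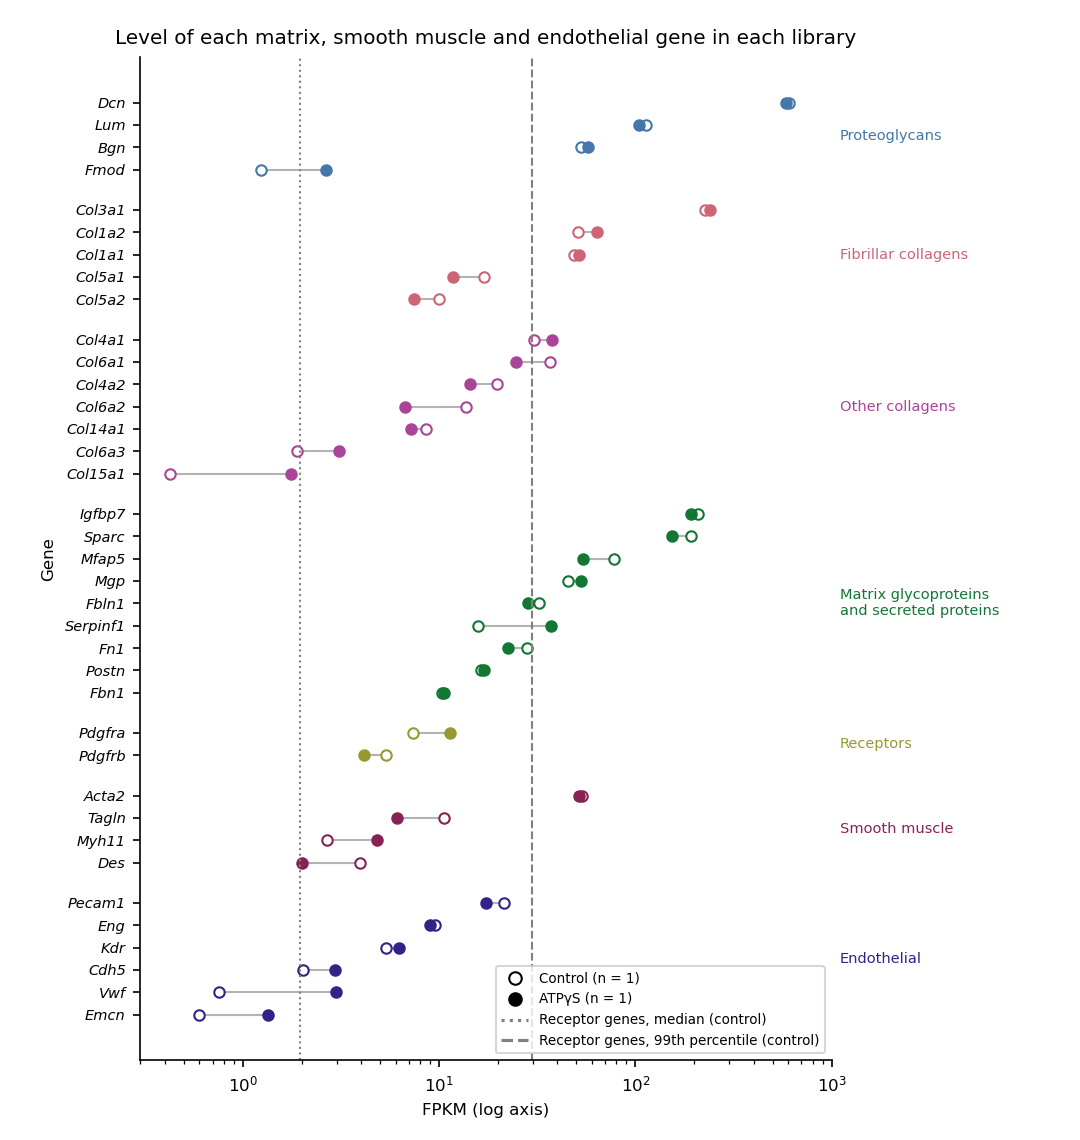
Level of each of the 37 genes in FPKM (log axis), by role and in order of mean level, with open circles for the control and filled circles for the ATPγS library (n = 1 each); the dotted and dashed lines are the median and the 99th percentile of the receptor genes in the control (1.96 and 29.6 FPKM). Proteoglycans and fibrillar collagens reach the highest levels, and all 6 endothelial genes lie left of the dashed line in both libraries.

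Summed over the 37 genes, the level was 1985.1 FPKM in the control and 1912 FPKM with ATPγS, a ratio of 0.963, and without Dcn the ratio was 0.960. A gene was counted as different when log2((ATPγS FPKM + 1)/(control FPKM + 1)) was at least 1 in either direction, which is 2-fold on this scale, and when its mean FPKM was at least 1. Of the 36 genes at that mean, 2 were at least 2-fold higher with ATPγS, Serpinf1 and Vwf, where 13.8% of all 18311 genes at that mean were. None of the 36 was at least 2-fold lower, where 9.91% of all genes were. Emcn was under the mean, and Vwf and Col15a1 passed it through the ATPγS library alone, being under 1 FPKM in the control. The median log2 ratio of the 36 was -0.05 against 0.01 over all genes at that mean, and 19 of the 36 lay below 0, against 49.6% of all genes at that mean. Counting error left 17 of the 36 ratios undecided. The interval lay wholly above 1 for 9 genes and wholly below 1 for 10, where 24% and 24.5% of all genes with a transcript length did so. The spread among all genes is thus wider than counting error, and an interval that leaves out 1 does not set a gene apart from the rest of the transcriptome.

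Both shares depend on level, so the members were also read by level. At a mean of 1 to 5 FPKM there were 8 members, of which Vwf was at least 2-fold higher, where 21.2% of all genes of that level were higher and 10.9% lower. Their intervals lay above 1 in 4 cases and below 1 in 1, where the shares of all genes were 26.1% and 15%. At 5 to 20 FPKM 0 of 12 members reached 2-fold, where 10.3% of all genes were higher and 11.2% lower, and intervals lay above 1 for 1 member and below 1 for 5 (22.5% and 28.2% of all genes). At 20 FPKM or more there were 16 members, of which Serpinf1 was at least 2-fold higher, where 2.3% of all genes were higher and 5% lower. At that level intervals lay above 1 for 4 members and below 1 for 4 (21.7% and 40.1% of all genes), and 9 of the 16 log2 ratios were below 0 (60.7% of all genes).

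The count of 2 followed the settings. A pseudocount of 0.1 in place of 1 gave 4 members higher and 1 lower (18.6% and 13.4% of all genes), adding Fmod and Col15a1 on the higher and Col6a2 on the lower side, which are also beyond 2-fold in plain FPKM, and a pseudocount of 5 gave 1 higher and 0 lower (3.06% and 2.52%). A mean of 5 FPKM or more left 1 member higher and 0 lower (7.48% and 9.04%). At 1.5-fold 5 members were higher and 3 lower (24.1% and 20.7%), and at 3-fold there was no member in either direction (6.3% and 3.34%). With the ATPγS values rescaled to a median log2 ratio of 0, intervals lay above 1 for 13 members and below 1 for 6 (29.2% and 18.9% of all genes).

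**Figure D2:**
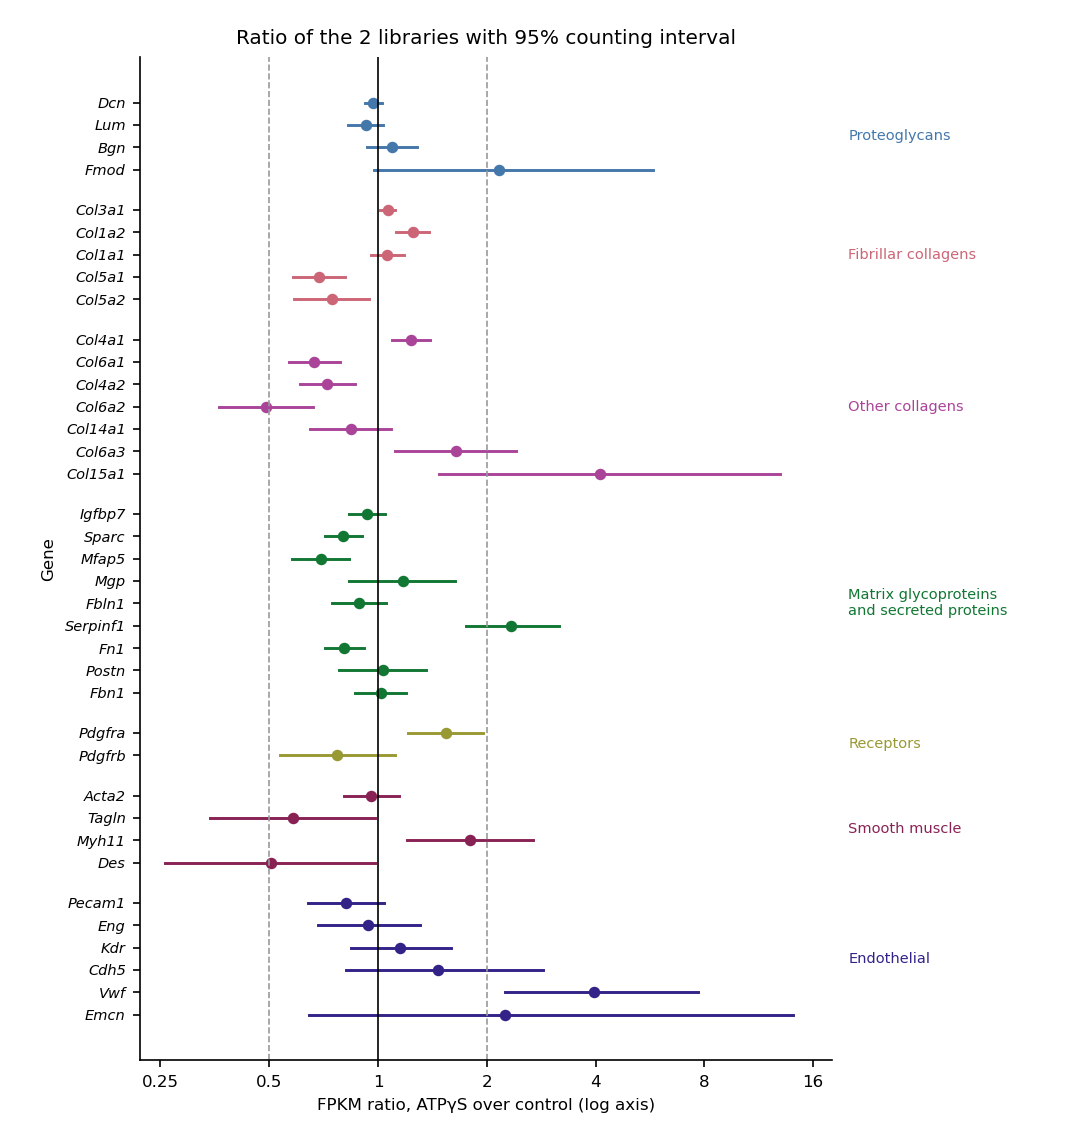
FPKM ratio of the ATPγS library over the control for each of the 37 genes (points, log axis) with its 95% exact binomial counting interval (lines), by role; the solid line marks a ratio of 1 and the dashed lines 0.5 and 2. Intervals are narrow for the abundant genes, as for Dcn (0.919 to 1.03), and wide for those near the level of the receptor genes, as for Emcn (0.643 to 14.1).

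For 23 of the 37 genes the RefSeq table (GRCm38.p6) holds a window before the annotated start. The 250 bases before the start are shown for the 3 most abundant genes that exceeded the 99th percentile of the receptor genes in both libraries and whose window overlaps no annotated exon, so that the sequences belong to transcripts well above that level. They are a fibrillar collagen, an insulin-like growth factor binding protein and a proteoglycan, and capitals mark the motif TATAAA.
Col3a1: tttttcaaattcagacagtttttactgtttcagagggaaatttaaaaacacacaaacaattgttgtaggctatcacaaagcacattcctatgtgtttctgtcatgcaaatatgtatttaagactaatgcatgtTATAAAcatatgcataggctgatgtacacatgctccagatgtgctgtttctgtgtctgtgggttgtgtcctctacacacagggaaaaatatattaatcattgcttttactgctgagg
Igfbp7: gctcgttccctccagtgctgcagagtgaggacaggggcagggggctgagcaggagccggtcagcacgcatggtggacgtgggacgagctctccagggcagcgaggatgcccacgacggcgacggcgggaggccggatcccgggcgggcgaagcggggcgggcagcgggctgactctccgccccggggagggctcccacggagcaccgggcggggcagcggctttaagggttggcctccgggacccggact
Bgn: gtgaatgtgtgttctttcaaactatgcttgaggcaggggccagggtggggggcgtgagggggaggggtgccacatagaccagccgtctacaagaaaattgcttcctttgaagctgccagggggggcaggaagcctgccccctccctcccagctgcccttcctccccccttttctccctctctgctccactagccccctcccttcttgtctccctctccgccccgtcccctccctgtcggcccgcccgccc
The Col3a1 window (chr1:45311288-45311537, plus strand) is AT-rich, with 35.2% G or C against a median of 52.4% over all 32851 windows. Those of Igfbp7 (chr5:77408046-77408295, minus strand) and Bgn (chrX:73483351-73483600, plus strand) hold 74% and 64.4%. TATAAA, searched on both strands, occurs in 12.4% of all windows of this length and in 2 of the 26 member windows, with its first base 117 bases before the Col3a1 start and 26 bases before a Postn start. CCAAT, searched on both strands, occurs in 33.8% of all windows and in 4 of the 26, those of Col1a2, Col4a1, Col4a2 and Serpinf1. These 4 windows overlap annotated exons, by 127, 250, 250 and 221 of their 250 bases in that order. The CArG box, the binding motif of serum response factor, was searched in its strict consensus form with no mismatch, on both strands, and occurs in 1.47% of all windows and in 0 of the 26. Forms that depart from the consensus, as smooth muscle genes are known to carry, were not searched. These motif matches describe letters in a window and say nothing about binding.

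The proteoglycans had the highest summed level through Dcn alone (without it their sum was 167 FPKM in the control and 165 FPKM with ATPγS). The intervals of their main members included 1 before any rescaling. Decorin binds collagen fibrils and growth factors, and its gene Dcn (chromosome 10, 97479609 to 97518143, GRCm38) stood at 605 FPKM in the control and 587 FPKM with ATPγS, a ratio of 0.971 (0.919 to 1.03). Lum, of lumican, which regulates fibril diameter, is the next gene along chromosome 10 (97565128 to 97572703) and stood at 113 and 105 FPKM. The ratio of Dcn to Lum was 5.34 in the control and 5.61 with ATPγS. Bgn, of biglycan, on chromosome X (73483602 to 73495933), stood at 52.6 and 57.4 FPKM. In each of these 3 genes the counting interval included 1. With the ATPγS values rescaled to a median log2 ratio of 0, the intervals of Dcn and Bgn lay above 1. Fmod, of fibromodulin, was far lower, at 1.23 and 2.66 FPKM from about 8 and 24 fragments, on either side of the receptor median. The class had a median log2 ratio of 0.04 with 0 of 4 genes at 2-fold with the pseudocount of 1 (the plain Fmod ratio was 2.16). Its summed level was 772 and 752 FPKM.

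Fibrillar collagens were led by type III. Col3a1 (chromosome 1, 45311538 to 45349706) stood at 227 FPKM in the control and 241 FPKM with ATPγS (ratio 1.06, interval 1.01 to 1.12). It exceeded Col1a1, of the α1 chain of type I collagen, by 4.67-fold in the control and 4.68-fold with ATPγS. Col1a1 (chromosome 11, 94936224 to 94953042) stood at 48.6 and 51.6 FPKM. Its partner chain gene Col1a2 (chromosome 6, 4504814 to 4541544) stood at 50.9 and 63.4 FPKM (ratio 1.25, interval 1.12 to 1.38). The Col1a1 to Col1a2 ratio was 0.957 in the control and 0.813 with ATPγS. Type V collagen nucleates the fibrils, and both of its chain genes among the members were lower with ATPγS. Col5a1 stood at 17.0 and 11.7 FPKM (ratio 0.688, interval 0.583 to 0.811) and Col5a2 at 10.001 and 7.44 FPKM (ratio 0.744, interval 0.585 to 0.946), so their ratio to each other was 1.70 and 1.57. The Col5a2 interval included 1 when the ATPγS values were rescaled to a median log2 ratio of 0. Col5a2 lies beside Col3a1 on chromosome 1 (45374321 to 45503282, minus strand) and lay on the other side of 1. None of the 5 fibrillar genes reached 2-fold, their median log2 ratio was 0.08, and their summed level was 353 and 376 FPKM.

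The other collagens were less abundant, and chains of the same type differed in opposite directions. Type IV collagen forms the network of basement membranes. Col4a1 (chromosome 8, 11198423 to 11312826, minus strand) stood at 30.3 FPKM in the control and 37.5 FPKM with ATPγS (ratio 1.24, interval 1.09 to 1.395). Col4a2 (11312805 to 11449287, plus strand) stood at 19.7 and 14.3 FPKM (ratio 0.724, interval 0.609 to 0.861). These genes start head to head, and their annotated exons overlap at the 5′ ends. The library preparation does not mark strand, so fragments there cannot be assigned to one of them. The Col4a1 to Col4a2 ratio was 1.54 in the control and 2.62 with ATPγS.

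Type VI collagen forms beaded filaments near cells. Its genes Col6a1 (36.8 and 24.5 FPKM) and Col6a2 (13.7 and 6.70 FPKM), neighbours on chromosome 10, were lower with ATPγS, and Col6a3 (1.88 and 3.08 FPKM), on chromosome 1, was higher. Col6a2 had the lowest ratio of all the collagens, 0.490 (0.363 to 0.661), and a log2 ratio of -0.93. The product of Col6a3 is the largest chain of the filament, and its gene was 19.6-fold under Col6a1 in the control and 7.97-fold under it with ATPγS. Col14a1, of a collagen that coats fibrils, stood at 8.53 and 7.17 FPKM, and the interval of its ratio (0.649 to 1.08) included 1. Col15a1, of a basement membrane collagen, stood at 0.425 and 1.75 FPKM from about 5 and 26 fragments. Of these 7 genes 0 reached 2-fold and the median log2 ratio was -0.22. Their summed level was 111 and 95.05 FPKM (ratio 0.853), and without Col4a1 the ratio was 0.710. Across all 12 collagens the sum was 465 and 471 FPKM, with 6 log2 ratios above 0 and 6 below.

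Among matrix glycoproteins and secreted proteins, 1 of 9 genes reached 2-fold. Serpinf1, of pigment epithelium-derived factor, a secreted inhibitor of vessel growth (chromosome 11, 75409769 to 75422701), stood at 15.8 FPKM in the control and 37.0 FPKM with ATPγS. The ratio was 2.34 (interval 1.75 to 3.17), from about 62 and 194 fragments. Serpinf1 passed the 99th percentile of the receptor genes with ATPγS only. The most abundant genes of this class were Igfbp7, of a vessel-associated binding protein (207 and 193 FPKM, ratio interval 0.829 to 1.04), and Sparc, of a matricellular collagen-binding protein (192 and 154 FPKM, interval 0.714 to 0.902). Igfbp7 shares exonic bases on the other strand with Polr2b, which stood at 25.03 and 12.8 FPKM.

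Genes of elastic fibre microfibrils differed from each other. Mfap5, of a microfibril-associated glycoprotein, stood at 77.7 and 53.9 FPKM (ratio 0.693, interval 0.577 to 0.831), whereas Fbn1, of fibrillin, stood at 10.4 and 10.6 FPKM (interval 0.865 to 1.20). Fbln1, of fibulin, stood at 32.2 and 28.5 FPKM (interval 0.746 to 1.05). Fn1, of fibronectin, which cells bind through integrins, stood at 27.9 and 22.5 FPKM (ratio 0.807, interval 0.714 to 0.915, which included 1 after the rescaling to a median of 0). Fn1 shares exonic bases on the other strand with Apol7d (3.33 and 0.277 FPKM). Mgp, of matrix Gla protein, an inhibitor of calcification, stood at 45.2 and 52.8 FPKM, and Postn, of periostin, at 16.4 and 16.9 FPKM, both with intervals that included 1. The 9 genes had a median log2 ratio of -0.10 and a summed level of 625 and 569 FPKM.

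The platelet-derived growth factor receptor genes were low. Pdgfra, a marker of fibroblasts (chromosome 5, 75152292 to 75198215), stood at 7.36 FPKM in the control and 11.3 FPKM with ATPγS (ratio 1.54, interval 1.21 to 1.95). Pdgfrb, a marker of pericytes and fibroblasts, stood at 5.36 and 4.12 FPKM (interval 0.537 to 1.12). Both were above the receptor median and under its 95th percentile of 15.9 and 15.6 FPKM in both libraries. The ratio of Pdgfra to Pdgfrb was 1.37 in the control and 2.75 with ATPγS.

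Smooth muscle genes split by level. Acta2, of smooth muscle actin (chromosome 19, 34241090 to 34255590), which fibroblasts can also express, stood at 53.7 and 51.4 FPKM (ratio 0.958, interval 0.804 to 1.14). The other genes were lower in level. Tagln, of the actin-binding protein transgelin, stood at 10.5 and 6.12 FPKM, Myh11, of smooth muscle myosin heavy chain, at 2.67 and 4.796 FPKM, and Des, of the intermediate filament desmin, at 3.93 and 1.99 FPKM. Acta2 exceeded Myh11 by 20.1-fold in the control and 10.7-fold with ATPγS. Tagln (interval 0.342 to 0.982) and Des (0.258 to 0.982) were lower and Myh11 (1.20 to 2.69) higher with ATPγS, each from under 100 fragments per library, and 0 of 4 genes reached 2-fold. The intervals of Tagln and Des included 1 under either rescaling of the ATPγS values, to an equal sum or to a zero median. Acta2 is related to other actin genes, and reads shared with them may have been split in the counting. Among them are Actg1 (2435 and 2973 FPKM), Actb (501 and 456 FPKM), Acta1 (0.857 and 1.92 FPKM) and Actc1 (0.308 and 3.45 FPKM). Sharing of reads was not examined, so the Acta2 level is uncertain. Tagln shares exonic bases with Pcsk7 on the other strand (6.81 and 13.1 FPKM), and Des with Gm15179 (2.35 and 3.52 FPKM).

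Endothelial genes were at low levels in both libraries. Pecam1, of an adhesion molecule that leukocytes and platelets also carry, was the highest at 21.3 FPKM in the control and 17.4 FPKM with ATPγS (interval of the ratio 0.641 to 1.04). It was the 1 endothelial gene above the 95th percentile of the receptor genes in both libraries. Eng, of endoglin, a co-receptor for TGF-β (9.56 and 8.99 FPKM), and Kdr, of the main VEGF receptor (5.39 and 6.20 FPKM), had intervals that included 1. Eng shares exonic bases on the other strand with Fpgs (4.41 and 5.15 FPKM). The defining genes Cdh5, of VE-cadherin (2.01 and 2.94 FPKM), and Emcn, of endomucin (0.599 and 1.35 FPKM), stood near or under the receptor median. Vwf, of von Willebrand factor (chromosome 6, 125546774 to 125686679), stood at 0.755 and 2.98 FPKM, from about 14 and 75 fragments, a ratio of 3.95 (2.25 to 7.69). Megakaryocytes and platelets also make this factor. Of the 8 platelet marker genes that reached this minimum mean, 6 were higher by the 2-fold count with ATPγS, where 13.8% of all genes were. Among the 6 were Pf4 (13.6 and 52.9 FPKM) and Clec1b (5.89 and 13.7 FPKM). Ppbp stood at 28.8 and 27.5 FPKM, and Gp9 was listed at 0 in both libraries. The summed level of the 12 platelet markers was 59.9 and 125 FPKM, and their part in the Vwf difference was not tested. The 5 endothelial genes above the minimum mean had a median log2 ratio of 0.17, with Vwf the 1 at 2-fold, and the summed level of all 6 was 39.6 and 39.8 FPKM.

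**Figure D3:**
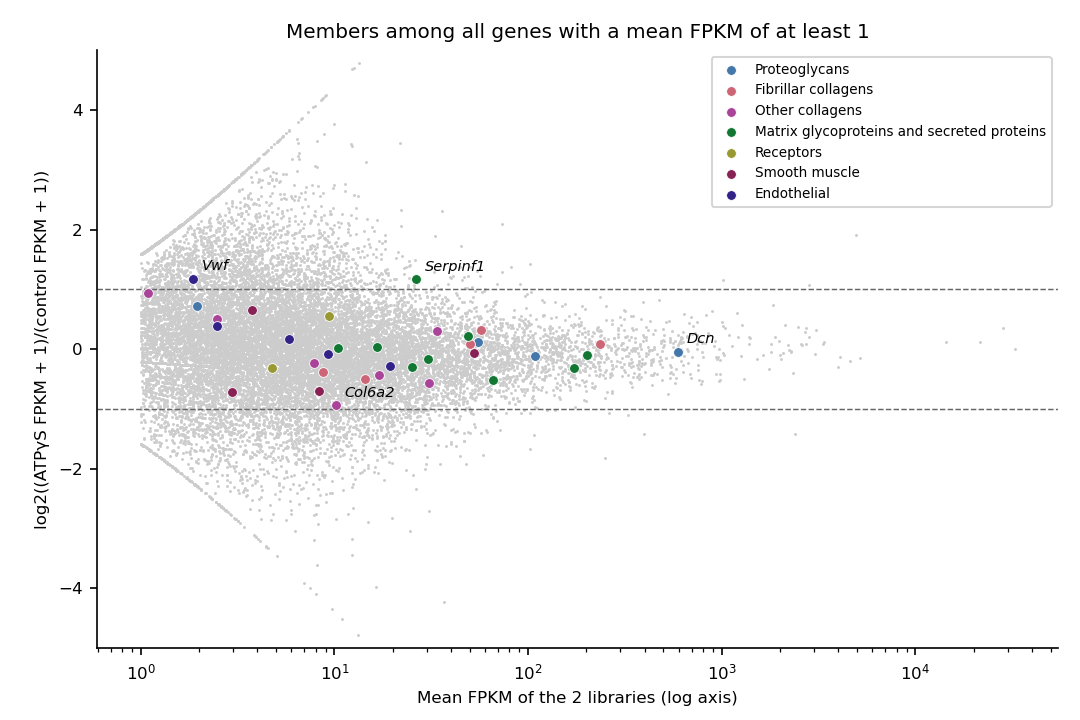
Log2 ratio against mean FPKM (log axis) for all genes whose mean reached 1 FPKM (grey, 1 point per gene, 43 genes beyond 5 on the vertical axis not shown) with the 36 members of that level coloured by role; dashed lines mark 2-fold. The members lie within the cloud of other genes, Serpinf1 and Vwf lie above the upper line, and Col6a2 lies just inside the lower one.

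The members on either side of the 2-fold limit had close values. Vwf (log2 ratio 1.18) and Serpinf1 (1.18) were beyond it, and Col15a1 (0.95) and, in the lower direction, Col6a2 (-0.93) fell short of it. Of these, Serpinf1 alone had a mean FPKM above 20.

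Further lists of stromal and matrix genes were read by the same 2-fold count, over their genes with a mean FPKM of 1 or more. Of all genes at that mean, 13.8% were higher and 9.91% lower with ATPγS. Of all genes at any level, 9.23% exceeded the 99th percentile of the receptor genes in both libraries. Of 23 fibroblast markers at that mean, 2 were higher and 2 lower with ATPγS. The most abundant were Mmp2, of a matrix-degrading gelatinase (82.5 and 70.8 FPKM), Fstl1 (49.9 and 48.9 FPKM) and Mmp3, of stromelysin (41.5 and 53.4 FPKM). Their summed level was 517 and 527 FPKM, 7 of the 26 listed exceeded the 99th percentile of the receptor genes in both libraries, and Twist1 was listed at 0 in both. Of 24 genes for collagen processing, 3 were higher and 2 lower. Among the higher, Adamts14 (0.873 and 4.3 FPKM) passed the mean through the ATPγS library alone. Among the lower, Plod2 (3.79 and 0.788 FPKM) passed it through the control alone. P4hb, of the protein disulfide isomerase subunit of collagen prolyl hydroxylase, stood at 162 and 214 FPKM, Ppib, of a prolyl isomerase, at 58.2 and 50.8 FPKM, and Pcolce, of an enhancer of procollagen cleavage, at 46.4 and 28.0 FPKM. The first and second of these have roles in all secretory cells. Of 15 basement membrane genes, 1 was higher and 0 lower. The higher gene, Lama1 (0.739 and 2.65 FPKM), passed the mean through the ATPγS library alone. Nid1, of nidogen, stood at 15.4 and 14.5 FPKM, Col18a1 at 11.5 and 12.96 FPKM and the laminin gene Lama4 at 8.81 and 9.10 FPKM. Of the 19 listed, 0 exceeded the 99th percentile. Among 19 matrix receptor genes, 1 was higher and 0 lower. Cd44, of the hyaluronan receptor (268 and 271 FPKM), and the fibronectin receptor genes Itga5 (80.9 and 77.2 FPKM) and Itgb1 (65.1 and 52.5 FPKM), which leukocytes express, led it.

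Further markers of vessel cells were read against the receptor genes as well. Of all genes, 9.23% exceeded the 99th percentile of the receptor genes in both libraries and 14.7% the 95th. Of all genes with a mean FPKM of 1 or more, 13.8% were at least 2-fold higher and 9.91% lower. At 1 to 5 FPKM, the level of the genes called below, these shares were 21.2% and 10.9%. Of 19 further endothelial markers at that mean, 2 were higher and 1 lower, with Plvap (29.3 and 39.5 FPKM), Cd34 (17.2 and 25.9 FPKM), which fibroblasts also carry, and Icam2 (12.1 and 7.59 FPKM) the most abundant. The 2 higher were Flt1, of a VEGF receptor (1.85 and 5.67 FPKM), and Tie1, of a receptor kinase (0.592 and 2.29 FPKM). The 1 lower was Cldn5, of a tight junction protein, at 6.32 FPKM in the control and listed at 0 with ATPγS. Tie1 passed the mean through the ATPγS library alone, and Cldn5 through the control alone. None of the 22 listed exceeded the 99th percentile of the receptor genes in both libraries, but Plvap and Cd34 exceeded it with ATPγS, Plvap was close to it in the control, and 2 of the 22 exceeded the 95th percentile in both. Among 14 further smooth muscle and pericyte markers, 2 were higher and 0 lower, with Myl9 (16.7 and 15.9 FPKM), Cald1 (12.3 and 14.1 FPKM) and Smtn (7.34 and 10.4 FPKM) at the top and 0 of 17 listed above the 99th percentile in both. The 2 higher were Tpm2, of a tropomyosin (0.191 and 7.29 FPKM), and Actg2, of an enteric smooth muscle actin (0.329 and 5.90 FPKM). Tpm2 and Actg2 passed the mean through the ATPγS library alone. Cnn1, of calponin, was listed at 0 with ATPγS and stood at 0.612 FPKM in the control. Among the members, by the same measure, 1 of 4 smooth muscle genes and 0 of 6 endothelial genes exceeded the 99th percentile in both libraries, and 3 of 4 proteoglycans did.

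Markers of other cell types were read in the same way. Of 16 epithelial markers, 4 were higher and 0 lower, where 13.8% of all genes at that mean were higher and 9.91% lower. The most abundant were the keratin genes Krt8 (51.8 and 32.7 FPKM), Krt19 (50.8 and 31.3 FPKM) and Krt18 (21.7 and 15.985 FPKM). The 4 higher were Elf3 (5.24 and 16.7 FPKM), Vil1 (0 and 3.92 FPKM), Muc2 (0.222 and 2.04 FPKM) and Fabp2 (0 and 2.16 FPKM). Vil1, Muc2 and Fabp2 passed the mean through the ATPγS library alone, and the Fabp2 interval included 1. The summed level of the list was 239 and 210 FPKM. Of 9 mesothelial, nerve and fat markers 4 were higher and 0 lower, where 21.2% of all genes at 1 to 5 FPKM were higher. The 4 were Adipoq, Lep (0.713 and 5.78 FPKM), Cidec (0 and 3.64 FPKM) and Msln (0 and 2.14 FPKM). Lep, Cidec and Msln passed the mean through the ATPγS library alone. All 9 were at low levels, with Gfap at 4.11 and 4.12 FPKM and Adipoq at 1.78 and 5.32 FPKM. Macrophages also make fibronectin. Among 14 macrophage markers 1 was higher and 0 lower (13.8% and 9.91% of all genes at that mean). Cd68 (375 and 411 FPKM), Adgre1 (149 and 215 FPKM) and C1qb (39.7 and 78.9 FPKM) were at the top. The summed level of these markers was 749 and 908 FPKM beside the lower Fn1, and their part in the Fn1 difference was not tested. Of 14 neutrophil and gate genes 1 was higher and 0 lower (13.8% and 9.91% of all genes). Next to S100a8, S100a9 stood at 13776 and 14942 FPKM and Lcn2 at 2487 and 2654 FPKM. S100a8 exceeded Dcn by 34.1-fold in the control and 38.2-fold with ATPγS. Of 8 leukocyte genes 0 reached 2-fold in either direction, beside the same shares of all genes. Tyrobp (1886 and 2073 FPKM), Fcer1g (1691 and 1586 FPKM) and Lcp1 (731 and 668 FPKM) were the most abundant.

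**Figure D4:**
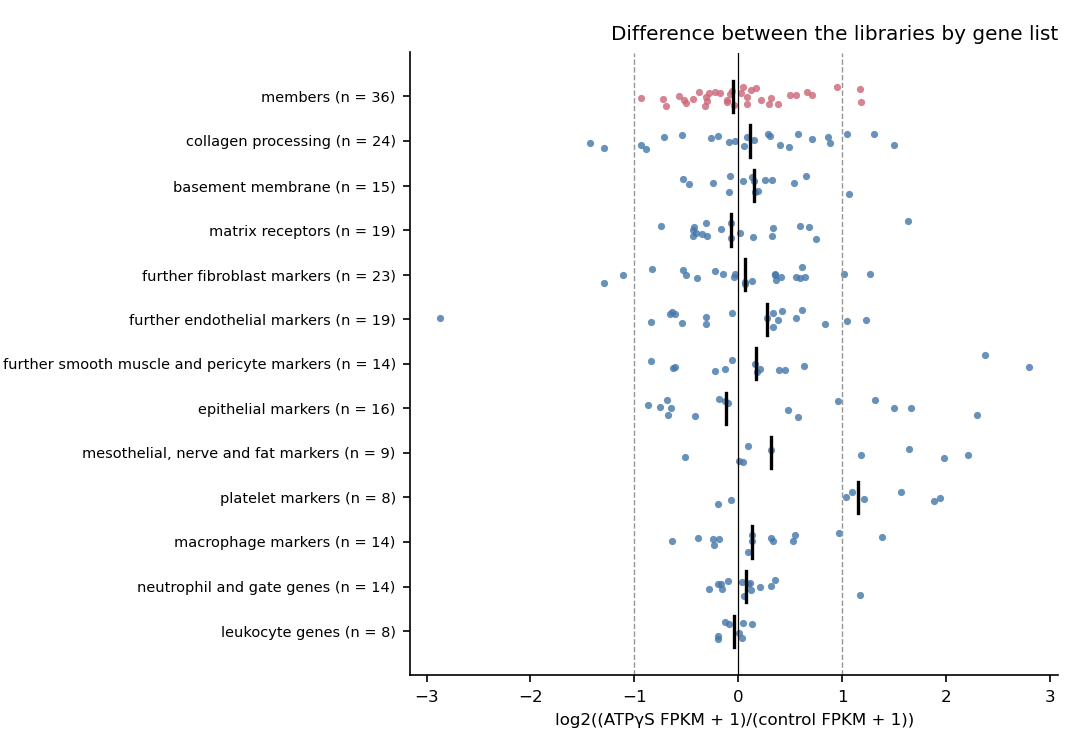
Log2 ratio of every gene whose mean reached 1 FPKM, in the members (red) and in each other gene list (blue, 1 point per gene, scattered vertically for legibility), with the list's median as a black bar and dashed lines at 2-fold. The members' median lies at -0.05 and the platelet markers' median at 1.16.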

How the data were processed

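RNA of Gr-1+ CD11b+ cells was measured in 1 control and 1 ATPγS library. Per the labels' protocols, SMART-Seq HT was used for cDNA and Nextera for the libraries, which do not mark strand. The deposited values are FPKM, 1 per gene symbol. The submitters' processing notes name Cufflinks 2.2.1, TopHat2 2.0.13 with Bowtie2 2.2.3, SAMtools 0.1.19 and the build mm10. The annotation behind them is not given in the sources.

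Values were used as deposited, with no count test, since FPKM are not counts and a group has 1 library. Depth was recovered from the steps of FPKM times coding length in 1416 receptor genes, of whose values under 10 fragments 65.2% (control) and 64.6% (ATPγS) came out whole within 0.05, where chance gives 10%. Fragments per gene used the GENCODE M21 transcript with the longest coding part (GRCm38, the build of mm10), which 95.7% of symbols matched, and are estimates, since the gene models behind the FPKM may differ from these. Ratios printed without a log are of FPKM with no pseudocount. The named genes were every member listed at 0 or averaging 1 FPKM or more, and the 3 most abundant of each other list. The values of 1 gene so named are not reported here. Further genes (Emcn, Gsn, copies and neighbours of members, Itgam, Clec1b, Adamts14, Plod2, Lama1, Flt1, Tie1, Cldn5, Tpm2, Actg2, Twist1, Cnn1, Gp9, Elf3, Vil1, Muc2, Fabp2, Lep, Cidec, Msln, Olfr856-ps1) were named after their values were seen. Loxl1, Cd34 and Lyve1 are in 2 lists each. The members, lists and receptor yardstick were chosen with earlier results of these data known. Steps were tested on simulated data (Python 3.11.15, SciPy 1.17.1).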

Additional observations from a re-analysis of the deposited data

How the results depend on the processing

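The pseudocount, the filter and the fold threshold moved the small counts of different genes. With a pseudocount of 0.1, 4 of the members were at least 2-fold higher and 1 lower, with a pseudocount of 5 only 1 was higher (Vwf then had a log2 ratio of 0.47), and at a mean FPKM of at least 5 there was 1 higher. At 1.5-fold 5 were higher and 3 lower, and at 3-fold 0 were higher. Rescaling shifted log2 ratios by 0.05 (same sum) and 0.13 (median of 0 over genes averaging 10 FPKM or more). The ratio of summed FPKM became 1.0002 and 1.05, the members' median log2 ratio 0.0026 and 0.09, and Dcn changed sign under both, so neither the sum nor Dcn has a direction. Under a median of 0, Lum, Igfbp7, Acta2 and Eng changed sign too, and 6 members had an interval below 1, those of Col5a2, Fn1, Tagln and Des then including 1 (Tagln and Des also at the same sum). The intervals of Bgn, Col1a1, Dcn and Fmod moved above 1 under a median of 0 (Fmod also at the same sum). The rescaling and the transcript length behind the intervals were varied after seeing the data for the interval counts. With the median transcript length the intervals of Col3a1, Col4a1 and Tagln included 1. No paired analysis was possible because each group has 1 library. Depth limits Emcn, Col15a1, Fmod, Vwf, Cdh5 and Des, which rest on under 30 fragments in the control.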
